A study of Mus musculus with 4 samples.

Results

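Ctla4, Icos, Cd28, Il2, Il21, Slc11a1, Tnfrsf9 and Ptpn22 are candidate genes of diabetes susceptibility in the NOD mouse that lie outside the MHC. Each was taken as the row of that name in every deposited file, which gave 8 genes of 33114 named genes. They were measured by RNA-seq of polyadenylated RNA in flow-sorted thymocytes of Rag1-deficient mice on 2 backgrounds, C57BL/6 (B6) and NOD, an inbred strain that develops autoimmune diabetes. All 4 libraries carried the Rag1-/- genotype, and there was 1 library per strain and age: B6 at 4 weeks, B6 at 7 weeks, NOD at 4 weeks and NOD at 6.5 weeks. Without RAG1, T-cell receptor genes cannot be recombined, so thymocytes carry no T-cell receptor, normally stop at the double negative stage and have no mature T cells around them. NOD mice without Rag1 have no diabetogenic lymphocytes, and the series is about failure of that stop and the start of leukaemia, not about diabetes itself. The sources used here do not give the sort markers or whether a library came from 1 mouse or a pool.

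The 8 genes belong to a few pathways of T-cell control. CD28 and ICOS are costimulatory receptors, and CTLA-4 competes with CD28 for the ligands CD80 and CD86 and restrains activation. Interleukin-2 and interleukin-21 signal through receptors that share the common gamma chain, TNFRSF9 (4-1BB, CD137) is a costimulatory receptor of the TNF receptor family, PTPN22 is a phosphatase that dampens antigen receptor signalling together with the kinase CSK, and SLC11A1 (NRAMP1) exports divalent metals from phagosomes of macrophages. In congenic mapping of NOD diabetes, Il2 and Il21 are candidates of the Idd3 interval, Ctla4 and Icos of Idd5.1, Slc11a1 of Idd5.2, Tnfrsf9 of Idd9.3 and Ptpn22 of Idd18.2, and Cd28 lies beside Ctla4. Outside this setting, CTLA-4, ICOS and TNFRSF9 are best known from activated and regulatory T cells.

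Promoter windows from RefSeq (build GRCm38.p6, the C57BL/6J sequence, 300 bases that run from upstream of the start into the transcript) were found for 6 of the 8 genes, and 3 are printed: those of the gene furthest below and of the gene furthest above B6 in NOD, and that of Il2, which had no reads. They lie at chr1:60908775-60909074 on the plus strand for Ctla4, at chr4:150919905-150920204 on the plus strand for Tnfrsf9 (the first of 2 windows listed for it) and at chr3:37125905-37126204 on the minus strand for Il2. Capitals mark GGAAA, the core bound by NFAT factors, on either strand (TTTCC on the strand printed).
Ctla4: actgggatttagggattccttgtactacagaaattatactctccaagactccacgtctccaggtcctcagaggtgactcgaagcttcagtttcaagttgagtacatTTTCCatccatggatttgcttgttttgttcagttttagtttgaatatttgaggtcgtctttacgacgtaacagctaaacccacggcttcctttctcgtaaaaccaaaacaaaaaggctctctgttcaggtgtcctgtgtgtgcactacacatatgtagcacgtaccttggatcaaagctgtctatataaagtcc
Tnfrsf9: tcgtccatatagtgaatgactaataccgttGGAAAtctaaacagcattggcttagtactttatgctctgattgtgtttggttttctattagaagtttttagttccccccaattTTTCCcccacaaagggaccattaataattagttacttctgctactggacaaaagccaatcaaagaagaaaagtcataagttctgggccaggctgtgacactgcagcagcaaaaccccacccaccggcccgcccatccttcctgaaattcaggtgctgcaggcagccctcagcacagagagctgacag
Il2: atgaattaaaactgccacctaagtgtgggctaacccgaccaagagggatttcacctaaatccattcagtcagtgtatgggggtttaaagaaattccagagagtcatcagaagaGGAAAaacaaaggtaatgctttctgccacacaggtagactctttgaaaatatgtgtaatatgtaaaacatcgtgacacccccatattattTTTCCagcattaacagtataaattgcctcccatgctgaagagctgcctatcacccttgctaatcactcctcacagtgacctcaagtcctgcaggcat
The Ctla4 window held 1 match, the Tnfrsf9 window 2 and the Il2 window 2. Of 32851 RefSeq windows of this length 61.3% held at least 1 match, with a median of 1 per window. The E-box letters CANNTG, which read the same on both strands and do not overlap GGAAA, occurred 2 times for Ctla4, 1 time for Tnfrsf9 and 0 times for Il2, and 72.3% of all windows held at least 1. These letters are those of B6, and the NOD sequence was not used here.

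The libraries held between 17060000 and 24100000 reads by the depth recovered from the files, of which 10939290 to 14801170 fell in the listed features. That share was lowest in B6 week 7, with 11172642 of 21250000 reads, against 11437797 of 17060000 in B6 week 4. The libraries had an early T-cell profile in both strains. All 10 early T-cell markers were above an RPKM (read density by gene length and library depth) of 1 in every library. Il2ra was at 422.4 to 531.1, while Cd8a was at 0.03 to 0.16. Rag1 RNA was present at 91.7 to 132.9, which does not check the knockout, because the deleted stretch is not named in the labels. Xist was at 20.2 to 119.8 and the Y-linked gene Ddx3y at 5.2 to 16.7, so transcripts of both sexes were in every library in different proportions, and the part of that mix in the autosomal genes described here was not tested. Of the markers of other stages and cells 1 was called: 0 of 5 tested double positive and later T-cell markers, 0 of 2 myeloid, 0 of 2 NK, 0 of 3 B-cell and 0 of 2 stromal markers passed, with 0 to 1 per list at an unadjusted p under 0.05 in limma, where 12.7% of all genes tested reached that p. The called marker, H2-Ab1 of antigen-presenting cells, entered the test only through the B6 libraries, where it was high, so its call is no independent evidence of a difference. The replicates of a strain are its 2 ages, so the spread behind each test holds both age and library. In bulk RNA, fewer cells of a type and less RNA per cell cannot be told apart.

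The 8 genes fell into 3 classes by level. Ctla4, Ptpn22 and Cd28 were expressed, with RPKM above 1 in all 4 libraries. Tnfrsf9 was above 1 in both NOD libraries and in neither B6 library. Icos was detected below an RPKM of 1 throughout, Slc11a1 rested on 3 reads in all, and Il2 and Il21 had 0 reads in every library. In B6 the order of mean RPKM was Ctla4 (39.9 ± 6.92), Ptpn22 (24.3 ± 1.65), Cd28 (3.56), Tnfrsf9 (0.725 ± 0.163) and Icos (0.325 ± 0.262; SD, n = 2), and only the last pair of neighbours lay within their spreads. In NOD it was Ptpn22 (17.2 ± 1.53), Ctla4 (6.09 ± 2.89), Tnfrsf9 (4.45 ± 0.460), Cd28 (2.63 ± 0.198) and Icos (0.125 ± 0.0212; SD, n = 2), where the values of Ctla4 and Tnfrsf9 overlapped. Ctla4 was thus above Ptpn22 in both B6 libraries and below it in both NOD libraries.

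**Figure D1:**
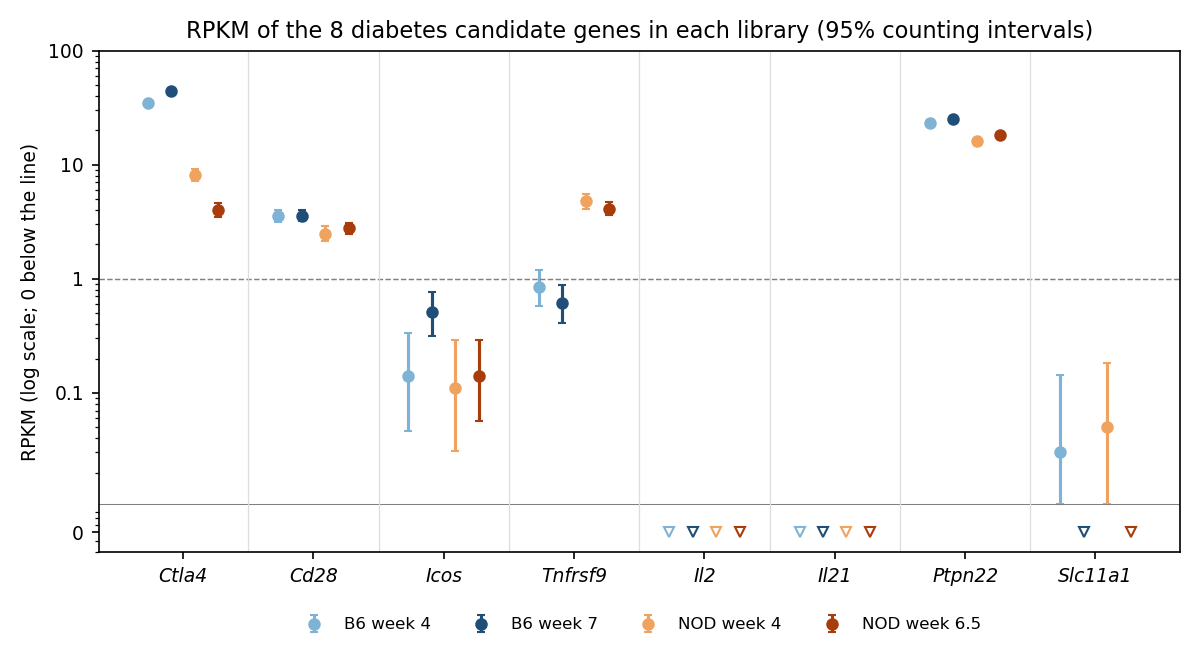
RPKM (log scale, with values of 0 drawn as open triangles below the line) of each of the 8 genes in the 4 libraries; bars are 95% Poisson counting intervals, cut at the line, and the dashed line is RPKM 1. Ctla4 lies between 35 and 44.8 in B6 and between 4.05 and 8.13 in NOD, Tnfrsf9 shows the opposite order, and Il2 and Il21 are at 0 in all 4 libraries.

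Ctla4, the inhibitory receptor gene, was lower in NOD at both ages. Its RPKM at 4 and 7 weeks in B6 was 35 and 44.8, and at 4 and 6.5 weeks in NOD it was 8.13 and 4.05, from 1153, 1837, 271 and 188 reads. Both NOD libraries lay far below both B6 libraries, with no overlap. At 4 weeks the RPKM was 4.31-fold lower in NOD (95% interval 3.77 to 4.93), and between NOD week 6.5 and B6 week 7 it was 11.1-fold lower (9.53 to 12.9). These exact (Clopper-Pearson) intervals cover counting error only, each from 1 library against 1. The deposited model counts all reads of the gene together, so the full-length, soluble and ligand-independent forms of CTLA-4, which differ by exon usage, could not be told apart.

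Over the 4 libraries, limma's log2 difference of RPKM + 1 for Ctla4 was -2.58 (SE 0.315), with a Benjamini-Hochberg adjusted p of 0.00435 over 12413 genes, and 27 genes had a lower value. Tnfrsf9 had a difference of 1.66 (SE 0.183, adjusted p = 0.00277 in limma). Because Tnfrsf9 passed the filter through its NOD libraries alone, its place among the tested genes already implied a difference, and its p and call are given as a description. Of the 8 genes 4 passed the filter of RPKM 1 or more in at least 2 libraries, and of these 1 was called lower and 1 higher, where 1.59% of all genes tested were called lower and 2.78% higher. By size alone, Ctla4 was 2-fold lower and Tnfrsf9 2-fold higher in NOD at both ages (log2 ratio of RPKM + 1), against 1.14% and 2.09% of the 12327 genes with RPKM 1 or more in a library of each pair. Tnfrsf9 was eligible for this count only through its NOD libraries, so for Tnfrsf9 it is also a description. Without a filter on low values, over 22836 genes, neither was called: the limma adjusted p was 0.102 for Ctla4 and 0.0718 for Tnfrsf9. The median difference of all genes tested was 0.096, and relative to it Ctla4 was at -2.68 and Tnfrsf9 at 1.56. By pair of libraries, the median ratio of RPKM + 1 of NOD to B6 was 0.965 at 4 weeks and 1.18 at the later ages. The ratios of single genes between strains are not corrected for this shift.

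**Figure D2:**
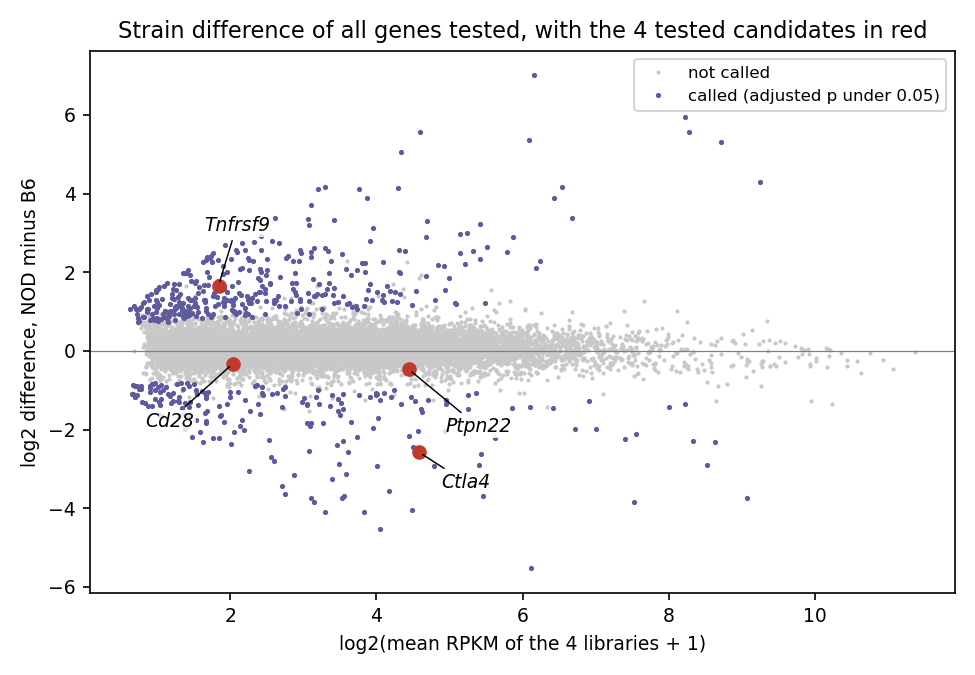
Each point is a gene tested, with log2 of mean RPKM + 1 on the horizontal axis and the log2 difference between NOD and B6 on the vertical axis; genes called by limma are blue and the 4 tested candidates red. Ctla4 at -2.58 and Tnfrsf9 at 1.66 lie among the called genes, whereas Ptpn22 at -0.47 and Cd28 at -0.33 lie in the cloud of genes not called.

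The strains moved in opposite directions with age at Ctla4. In B6 its RPKM was 1.28-fold higher at 7 than at 4 weeks (95% interval 1.19 to 1.38), and in NOD it was 2.01-fold lower at 6.5 than at 4 weeks (1.66 to 2.44). Over all genes tested the median ratio of RPKM + 1 was 0.814 for the B6 pair and 0.967 for the NOD pair. Each direction rests on 1 library per age, so the difference between the strains in their change with age was not tested.

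Markers of other cells were compared with Ctla4 across the same libraries. Foxp3, which marks regulatory T cells, where Ctla4 is abundant, had an RPKM of 1.04 and 0.65 for B6 against 0.96 and 1.12 for NOD, so its strains overlapped. The summed RPKM of 11 NK and innate lymphoid markers reached 145.5 and 132.8 for B6 against 109.8 and 90.4 for NOD, mostly from the granule genes Gzma and Nkg7. The other 9, among them the defining markers Ncr1 and Klrk1 at 0.28 or less, were under an RPKM of 1 in every library. Of these low markers, Zbtb16, Tbx21, Prf1, Klrb1c and Eomes were higher in both NOD libraries than in both B6 libraries. Eomes was at 0.08 or less, and Klrb1c had up to 24% shared reads. The share of all genes whose strains do not overlap was not computed, so the orders of markers given here are description only. Zbtb16 was at 0.03 and 0.06 for B6 against 0.27 and 0.79 for NOD. Ncr1 was lower in both NOD libraries, and Klrk1, Klrd1 and Rora overlapped, so the direction of the sum is that of Gzma and Nkg7. The summed RPKM of 8 antigen-presenting and dendritic cell markers reached 8.15 and 6.35 for B6 against 4.19 and 2.05 for NOD, and 5 of the 8 were under an RPKM of 1 in every library. The strains overlapped for Cd74, at 1.82 and 2.46 for B6 against 2.33 and 1.12 for NOD. H2-Aa was lower in both NOD libraries, and Siglech, at 0.08 or less with up to 100% shared reads, was higher. The MHC class II gene H2-Ab1, which entered the test only through its B6 libraries, was at 5.16 and 2.41 for B6 against 0.99 and 0.25 for NOD (log2 difference -1.54, limma adjusted p = 0.0474, a description for that reason), while Xcr1 and Flt3 were at 0.05 or less and Batf3 was at 0. With a pseudocount of 0.1 this p was 0.0683, and without B6 week 4 it was 0.0548. The part of these cells in the Ctla4 difference was not tested.

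Cd28, the costimulatory receptor gene next to Ctla4 on chromosome 1, was expressed at a low level in all 4 libraries. Its RPKM was 3.56 in both B6 libraries, 2.49 in NOD week 4 and 2.77 in NOD week 6.5, from 182 to 321 reads. Both NOD values were below both B6 values, by 1.43-fold at 4 weeks (95% counting interval 1.18 to 1.74) and 1.29-fold at the later ages (1.09 to 1.51). In limma the log2 difference was -0.33 (SE 0.18, adjusted p = 0.534), so it was not called. In B6 the ratio of week 7 to week 4 was 1 (0.848 to 1.19), and in NOD that of week 6.5 to week 4 was 1.11 (0.921 to 1.35). With 2 libraries per strain, values that do not overlap carry little weight alone. Cd3d and Cd3g (lower in NOD) and Lck (higher) did not overlap either, with limma adjusted p of 0.715, 0.792 and 0.755. The share of all genes without overlap was not computed, a limit that also holds for the markers above and for Ptpn22, Rsbn1 and Il21r below.

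Icos, the costimulatory receptor gene on the other side of Ctla4, was near the limit of detection. Its RPKM at 4 and 7 weeks in B6 was 0.14 and 0.51, and at 4 and 6.5 weeks in NOD it was 0.11 and 0.14, from 5, 22, 4 and 7 reads. B6 week 7 was higher than the rest and the other 3 libraries were alike within counting error. NOD was 3.64-fold lower than B6 at the later ages (95% interval 1.47 to 9.88), while at 4 weeks the ratio of NOD to B6 was 0.786 with an interval of 0.157 to 3.67, which allows a difference in either direction. Icos did not enter the strain test, because no library reached an RPKM of 1. The protein-coding genes that flank the Cd28, Ctla4 and Icos cluster in RefSeq order, Raph1 and Pard3b, were at RPKM 0.03 or less and 0.18 or less. The nearest listed features on either side of Ctla4 were pseudogenes, Rpl18-ps1 (LOC667100 in the files) at 7.07 to 14.7 with 94% shared reads and Gm11582 (LOC100043049) at 0.20 or less with 100%, so their values are uncertain. Of the 3 receptor genes in a row Ctla4 was called, Cd28 was not and Icos was not tested.

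Tnfrsf9, the 4-1BB gene on chromosome 4, was higher in NOD at both ages. At 4 and 7 weeks in B6 its RPKM was 0.84 and 0.61, and at 4 and 6.5 weeks in NOD it was 4.77 and 4.12, from 32, 29, 183 and 221 reads. The NOD values did not overlap those of B6. NOD was 5.68-fold higher at 4 weeks (95% interval 3.87 to 8.51) and 6.75-fold higher at the later ages (4.55 to 10.3). With age the ratio was 0.726 in B6 (0.425 to 1.24) and 0.864 in NOD (0.708 to 1.06), and both intervals include 1. Its protein-coding neighbours in RefSeq order had overlapping strains: the RPKM of Park7, an oxidative stress protein gene, was 179.3 and 110.4 for B6 against 145.9 and 144.5 for NOD, and that of Per3, a clock gene, lay between 0.81 and 0.96. Tnfsf9, the ligand gene of TNFRSF9, was at 1.20 and 1.14 in B6 and 1.13 and 1.39 in NOD.

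**Figure D3:**
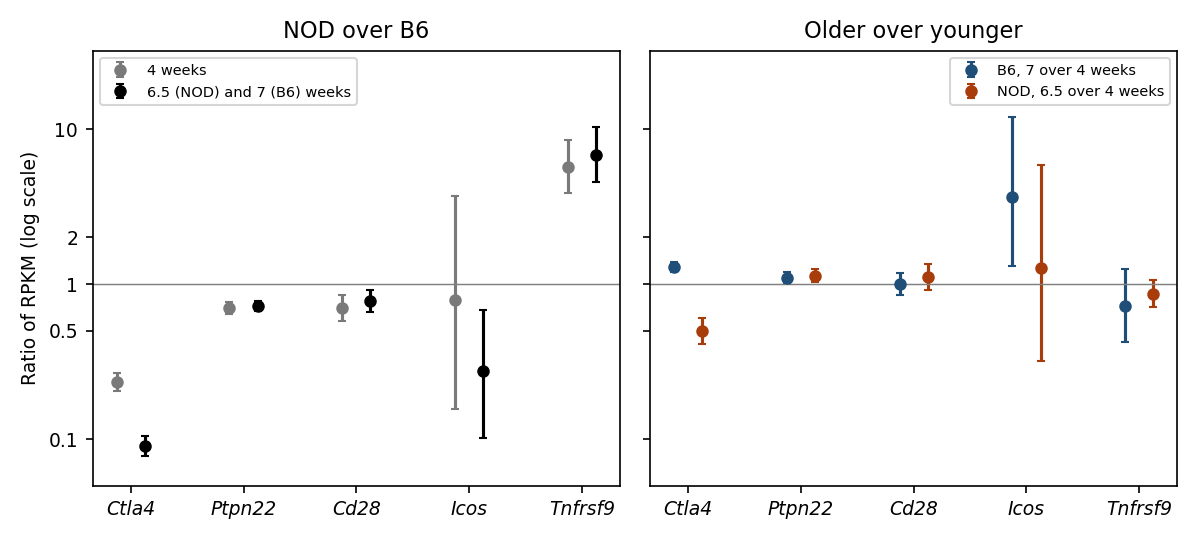
Ratios of RPKM between 2 libraries (log scale) with 95% exact counting intervals, NOD over B6 at each age on the left and older over younger within a strain on the right, for the 5 genes with enough reads. Ctla4 lies below 1 at both ages on the left and on opposite sides of 1 for the strains on the right, Tnfrsf9 lies above 1 at both ages, and the wide bars of Icos reflect its 4 to 22 reads per library.

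Ptpn22, which encodes the lymphoid phosphatase, was well expressed in both strains. At 4 and 7 weeks in B6 its RPKM was 23.1 and 25.4, and at 4 and 6.5 weeks in NOD it was 16.2 and 18.3, from 760 to 1474 reads. Both NOD libraries were below both B6 libraries, by 1.43-fold at 4 weeks (95% interval 1.30 to 1.57) and 1.39-fold at the later ages (1.29 to 1.5). The limma log2 difference was -0.47 (SE 0.214) with an adjusted p of 0.427, so it was not called. Without B6 week 4 the adjusted p was 0.0463, in a fit where the lone B6 library is assumed to vary like the NOD libraries and the median difference of all genes tested was 0.253. Both strains had somewhat higher values at the later age, by 1.10-fold in B6 (1.02 to 1.19) and 1.13-fold in NOD (1.04 to 1.24). Csk, the kinase partner of PTPN22, was at 75.1 and 36.9 in B6 and 69.5 and 83.2 in NOD, with B6 week 7 alone low (limma log2 difference 0.52, SE 0.353, adjusted p = 0.621). The related phosphatase genes Ptpn12 and Ptpn18 had differences of -0.28 and -0.73 and were not called, with limma adjusted p values of 0.636 and 0.295. Its neighbour Rsbn1 was also lower in both NOD libraries, at an RPKM of 8.92 and 7.97 against 9.61 and 11.1 for B6, and the neighbour on the other side, Bcl2l15 (Gm566 in the files), was at 0.10 or less.

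Il2 and Il21, neighbours on chromosome 3 that encode T-cell growth and helper cytokines, had 0 reads in every library. A count of 0 allows up to 3 reads as a one-sided 95% limit, which is an RPKM of 0.133 to 0.187 for Il2 and of 0.0405 to 0.0572 for Il21. The upper ends of the two-sided 95% Poisson intervals are wider, 0.163 to 0.230 for Il2 and 0.0498 to 0.0704 for Il21. No difference between strains was detectable for either. The receptor side was present: Il2ra, the alpha chain of the interleukin-2 receptor and a marker of this stage, was at RPKM 460.8 and 422.4 in B6 and 491.9 and 531.1 in NOD, and Il2rg, the common gamma chain, at 78.2 and 64.5 in B6 and 62.2 and 87.6 in NOD. Il2rb, the beta chain needed for signalling by interleukin-2, was at 0.46 or less in all 4. Il21r was at 10.8 and 10.6 in B6 and 7.51 and 5.73 in NOD, with both NOD values below both B6 values (limma log2 difference -0.63, SE 0.214, adjusted p = 0.243).

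Slc11a1, the phagosomal metal transporter gene on chromosome 1, had 1 read (B6) and 2 reads (NOD) at 4 weeks and 0 reads at the later ages. Its RPKM was thus at or below 0.05 throughout, under the 3 reads that a count of 0 allows, and no strain difference was detectable. In NOD week 4 the authors' share of reads that map to more than 1 place was 49% for this gene. Among 12 myeloid markers 8 were under an RPKM of 1 in every library, with Csf1r at 0.13 or less and Adgre1 (Emr1 in the files) at 0.10 or less. The summed RPKM of the 12 was 24.6 to 30.6, mostly from Lyz2 (Lyzs) at 21.3 to 25.8, with up to 31% shared reads. Cd68 was at 1.74 to 2.57. S100a8 and S100a9 passed 1 only in B6 week 4, at 2.24 and 1.80, and were at 0.59 or less in the other libraries. B6 mice are known to carry a loss-of-function amino acid change in SLC11A1, which a gene-level value does not show.

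The genes around the 8 candidates were described from 7 lists with 102 different genes, of which 77 were tested. In limma 1 of them was called higher and 0 lower in NOD, and 8 had an unadjusted p under 0.05, a p that 1574 of the 12413 genes tested reached (12.7%). The 4 tested partners of the CD28 family had a median log2 difference of 0.38, against 0.096 for all genes tested. In limma 0 of them were called and 1 had an unadjusted p under 0.05. That gene was Pdcd1, named after its values were seen. It was at RPKM 2.52 and 2.27 in B6 and 3.48 and 5.60 in NOD (log2 difference 0.68, SE 0.233, limma adjusted p = 0.252). Icosl, the ICOS ligand gene, was at RPKM 2.43 and 1.73 in B6 and 3.29 and 2.87 in NOD (limma adjusted p = 0.465). Tnfrsf14, the most abundant of the tested partners, was at 22.2 to 34.0. Cd80 and Cd86, the ligand genes of CD28 and CTLA-4, were at 0.07 or less in every library, and Vtcn1 at 0.

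The T-cell receptor and CD28 signalling list had 0 called genes of 32 tested and 1 with an unadjusted p under 0.05 in limma, with a median of 0.19. The CD3 gamma chain gene Cd3g was its most abundant member, with a mean RPKM of 1379. Of the gamma-chain cytokine and receptor genes 0 of 15 tested were called and 1 had an unadjusted p under 0.05 (median 0.043). Of the TNF receptor family genes 0 of 9 were called and 1 had an unadjusted p under 0.05 (median 0.056). That gene was Tnfrsf8, the CD30 gene, named after its values were seen, at RPKM 14.3 and 9.78 for B6 against 26.2 and 23.2 for NOD (log2 difference 1.0, SE 0.247, limma adjusted p = 0.0856). Cd27 was the most abundant, with a mean RPKM of 55.5, and Cd70 and Cd40lg had none. Trf, the transferrin gene, was the call among 9 phagosome and metal transport genes, at RPKM 4.57 and 2.65 in B6 and 8.87 and 10.8 in NOD (log2 difference 1.26, SE 0.257, limma adjusted p = 0.0395). Without B6 week 7 its adjusted p was 0.0622 and without NOD week 6.5 it was 0.132.

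Of 11 other proposed candidates of NOD diabetes loci, 7 were tested and 0 were called, with 2 at an unadjusted p under 0.05 in limma, which 12.7% of all genes tested reached. B2m, the MHC class I light chain gene, was the most abundant, at RPKM 1319 and 1461 in B6 and 545.1 and 612.2 in NOD (log2 difference -1.26, SE 0.301, adjusted p = 0.0748). Trpv1, Cd101, Fcgr1 and Arntl2 were at 0.08 or less in every library.

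**Figure D4:**
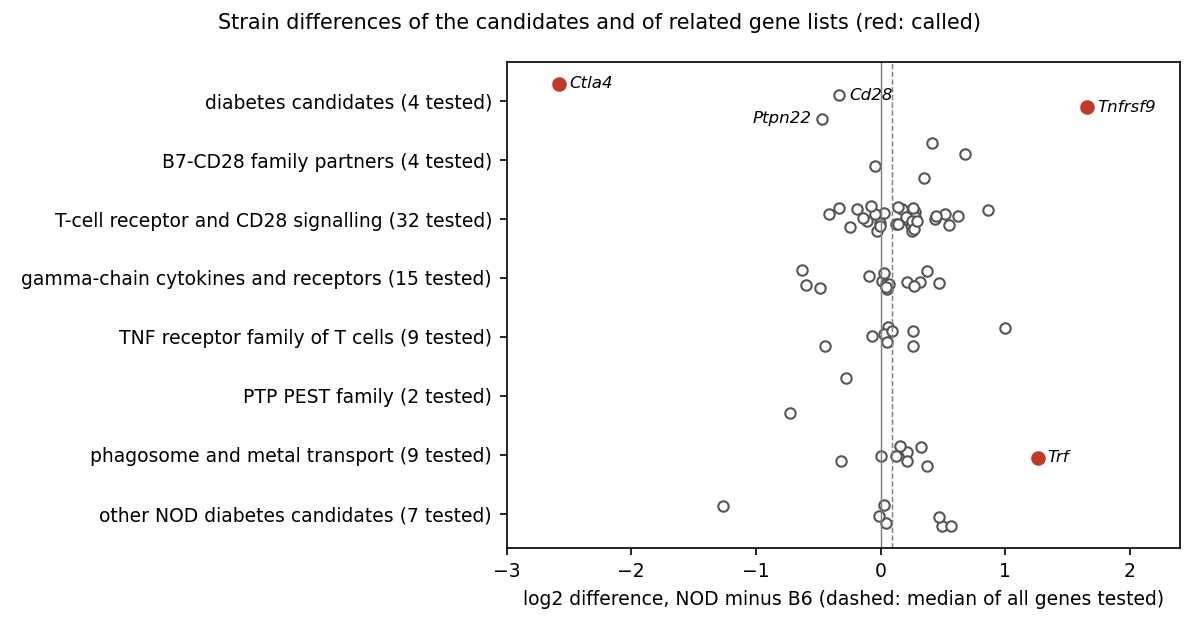
Log2 difference between NOD and B6 of each tested gene, for the 4 tested candidates and 7 related lists; red points are called by limma, open points are not, and the dashed line is the median of all genes tested, 0.096. Ctla4 lies below the tested CD28 family partners, Tnfrsf9 lies above the tested TNF receptor family genes, and Trf at 1.26 is the call among the 77 pathway genes.

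The genes with the pattern most like each candidate were sought among 8525 tested genes with under 10% shared reads, by the root mean square difference of log2(RPKM + 1) centred on each gene over the 4 libraries. For Ctla4 these were Rab6b (0.230), Dapk1 (0.270) and Gsr (0.335). For Tnfrsf9 they included Dpp7 (0.048) and Txk (0.079), a Tec family kinase gene of T cells. For Ptpn22 they were Rif1 (0.015), Arhgap15 (0.016) and 4632417K18Rik (Fam111a, 0.020), and for Cd28 Apool (0.011), Rab8b (0.013) and Ccpg1 (0.014). The distances for Ctla4 were the largest of the 4, and in Rab6b, Dapk1 and Gsr the B6 level was lower at 7 than at 4 weeks, unlike in Ctla4.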

How the data were processed

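Polyadenylated RNA of sorted thymocytes was sequenced on a Genome Analyzer II, without a strand-specific step in the labels' protocols. Bowtie 0.12.1 and build mm9 are named in the submitters' processing notes. RefSeq tables of GRCm38.p6 served only for names, gene order and promoter sequence. Each deposited file gives, per the file headers, a gene length in kilobases, the authors' RPKM, and the fraction of a gene's reads that map to more than 1 place (shared reads). This deposited fraction was at most 4% for the candidates other than Slc11a1. How reads were counted, how shared reads were treated and which gene models were used is not given in the sources used here. The reads of 32 bases from NOD were placed on a C57BL/6J-based build, and how NOD sequence differences affect the values was not tested. RefSeq lists Gm36168 as overlapping Il21, and reads of overlapping genes could not be separated.

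The files hold no counts. Depth was taken as the value at which RPKM times length of short genes (0.6 kilobases or less, product under 0.5) gives whole reads. At that depth 98.8% to 100% of these values lay within 0.1 of a whole number, where 20% would by chance. Reads per gene, Poisson intervals and exact intervals of ratios follow from it (scipy 1.17.1). They cover counting error only.

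The strain test was two-sided, by limma 3.58.1 (R 4.3.3) with an intensity trend, on log2(RPKM + 1), with no term but strain, 2 libraries per strain, 2 residual degrees of freedom, and Benjamini-Hochberg adjustment at 0.05 over all 12413 genes with RPKM 1 or more in at least 2 libraries. The pseudocount of 1 understates changes of low genes. Features without a gene name, 105 to 168 per file, were left out. Pairs of libraries are described without a test. All 169 list entries (166 genes) were matched, 9 through an older symbol. Named are the 8 candidates, called list members, the most and least abundant list members, direct partners, nearest neighbours and the 3 genes of most like pattern; protein-coding neighbours beyond those and any other gene in the text were added after values were seen. Some genes that this rule names are not reported here. The candidates and lists were chosen with earlier results of these data known.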

Additional observations from a re-analysis of the deposited data

Results flagged for a closer look

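Ctla4 changed with age in opposite directions in the strains. The ratio of RPKM at week 7 to week 4 was 1.28 in B6, and that of week 6.5 to week 4 was 0.498 in NOD, and both 95% counting intervals leave out 1. Each ratio sets 1 library against 1, so this difference between the strains was not tested.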

How the results depend on the processing

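For Ctla4, Tnfrsf9, Cd28 and Ptpn22 the strains did not overlap, so only quantile normalization and median-ratio scaling could have reversed their direction. The direction of these genes was the same under all 11 alternatives of the strain test. Ctla4 (between -3.01 and -2.15) and Tnfrsf9 (between 1.51 and 2.47) were called under 10 of them; for Tnfrsf9 this is a description, since it entered the filtered tests only through its NOD libraries. Adjusted p values in limma ran from 3.96e-19 to 0.102 for Ctla4 and from 3.49e-12 to 0.0718 for Tnfrsf9. They were smallest with age class as a block, a fit with 1 residual degree of freedom. Each fit with 1 library left out also had 1 residual degree of freedom. In the block fit and without NOD week 4 or 6.5, limma took each gene's spread almost wholly from all genes together. The p values of these fits therefore do not measure the spread of Ctla4 or Tnfrsf9 between the libraries. Their calls are nevertheless counted among the 10. Neither gene was called with no filter on low values, which left the differences at -2.58 and 1.66. That setting called 0 of the 6 candidates then tested, with 3 at an unadjusted p under 0.05 in limma. Ptpn22 was called only without B6 week 4, and its difference ran from -0.56 to -0.38 with 1 library left out.

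Over all genes, 345 were called higher and 197 lower in NOD. No filter on low values gave 82 and 40, age class as a block 665 and 340, and genes under 10% shared reads 121 and 70. With 1 library left out the counts ran from 264 to 2919 and from 146 to 452, both highest without B6 week 4. Quantile normalization moved the median difference from 0.096 to -0.0091. Ctla4 and Tnfrsf9 were 2-fold apart at both ages with a pseudocount of 0.1, quantile normalization and median-ratio scaling, and no further candidate passed at 1.5-fold. For Tnfrsf9 this too is a description, since only its NOD libraries made it eligible. Trf lost its call under 5 alternatives and H2-Ab1 under 5. Without replicates of a strain and age, a strain difference at 1 age has no error beyond counting, and depth limits Icos, Slc11a1, Il2 and Il21.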
